A study of Drosophila melanogaster with 3 samples.

Results

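Oxidative phosphorylation genes encode the nuclear subunits of the 5 enzyme complexes of the mitochondrial inner membrane. They were taken as the protein-coding genes on the chromosome arms whose symbols start with ND- (complex I), with Sdh followed by A to D (complex II), with UQCR- (complex III), with COX followed by a number (complex IV) or with ATPsyn (complex V). The rule found 87 genes among 13945 protein-coding genes, with 40, 7, 9, 16 and 15 in complexes I to V. Of these, 63 carried a standard subunit symbol, and 24 were paralogues, that is, duplicated copies whose symbols add a final L with or without a number (SdhAL, COX7AL2). All positions are on genome build dm6.

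Binding of Sox14 was mapped by chromatin immunoprecipitation and sequencing (ChIP-seq) in Drosophila melanogaster. The series held 1 group of 3 biological replicates, each a single library of whole animals at the white prepupa stage, with males and females pooled and of unknown age in the labels. All animals came from the transgenic line Sox14-GFP, which stably expresses Sox14 carrying GFP at its C terminus, and the antibody used for precipitation was against GFP. No untagged or other comparison group was analysed here, so every summit is a peak of anti-GFP chromatin from this line, averaged over all tissues of the animal. The deposited lists give peaks and no read counts, so sequencing depth and the counting error of a peak are unknown.

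Complex I oxidises NADH and complex II succinate, and both pass electrons through ubiquinone to complex III. Cytochrome c then carries them to complex IV, where oxygen is reduced, and the proton gradient built by complexes I, III and IV drives ATP synthesis in complex V. All subunits of complex II are encoded in the nucleus, whereas the central subunits of the other complexes are partly encoded in mitochondrial DNA and are outside the gene list used here. Sox14 is a transcription factor with an HMG box, induced by the steroid ecdysone at the onset of metamorphosis, when larval tissues are broken down and adult tissues form. In D. melanogaster many nuclear genes for mitochondrial proteins have duplicates that are expressed mainly in the testis.

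The first comparison asked how many of these genes had a Sox14 summit, the highest point of a peak, within 1 kb of any of their annotated transcription start sites (TSS). The authors' optimal list held 9316 peaks that passed a threshold on reproducibility between replicates. In it, 34 of the 87 genes (39.1%) had a summit, against 4677 of all 13945 protein-coding genes (33.5%). The 34 strongest summits, 1 for each gene, were all different peaks. The share in the whole set was thus near that of all protein-coding genes, and no test was made, since the genes are not replicates and no list was tested against others.

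The 2 kinds of gene in the set had very unequal counts. Of the standard subunit genes, 33 of 63 (52.4%) had an optimal summit, and of the paralogues 1 of 24 (4.17%) had one, with 33.5% of all protein-coding genes as background. When only summits nearest to the gene's own TSS counted, these were 21 of 63 (33.3%) and 1 of 24, against 25.7% of all protein-coding genes. The exception, COX7AL2, a copy of the complex IV subunit gene COX7A, had its strongest summit 594 bp upstream of its TSS in an intron of its own gene. That peak ranked 1937th by signal in the optimal list, and 2800th, 2320th and 1173rd in replicates 1, 2 and 3. It lay farther than 500 bp from the TSS, so that no paralogue had an optimal summit in that smaller window.

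**Figure D1:**
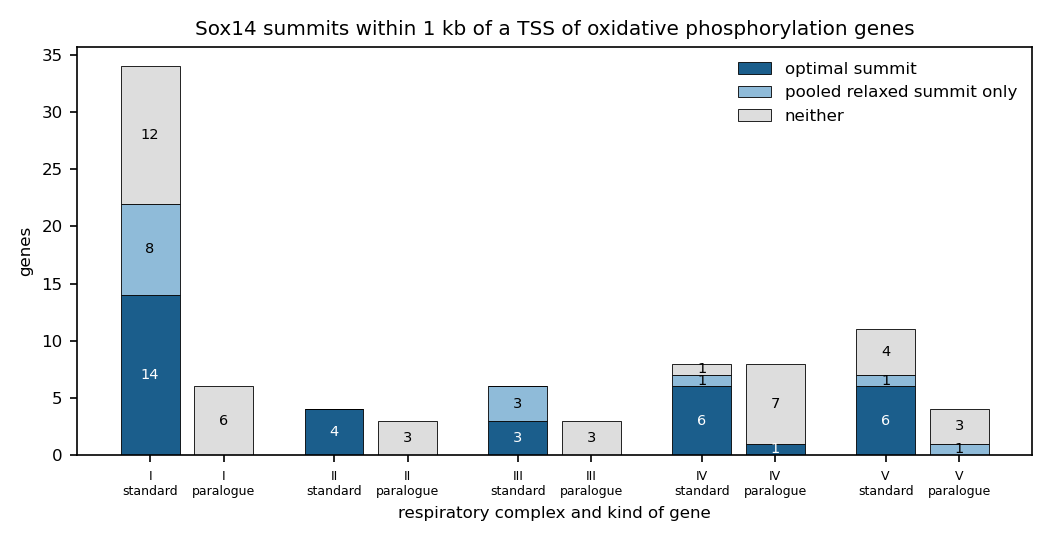
Number of oxidative phosphorylation genes (vertical axis, genes) by complex and kind of gene (horizontal axis), split into those with a summit in the optimal list (within 1 kb of a TSS), those with a summit in the pooled relaxed list only, and those with neither. The dark blocks hold 33 of 63 standard subunit genes and 1 of 24 paralogues.

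By complex, an optimal summit lay within 1 kb for 14 of 40 genes of complex I (35%), 4 of 7 of complex II (57.1%), 3 of 9 of complex III (33.3%), 7 of 16 of complex IV (43.8%) and 6 of 15 of complex V (40%). Among standard subunit genes alone the shares were 14 of 34 (41.2%), 4 of 4 (100%), 3 of 6 (50%), 6 of 8 (75%) and 6 of 11 (54.5%) for complexes I to V. Complex II was the complex in which every standard gene had one, and 3 of the 4 did within 250 bp or when only the nearest TSS counted. Over all protein-coding genes the share with an optimal summit within 1 kb was 33.5%, and complexes I and III, taken whole, were near it. With 4 to 34 genes in a complex, 1 gene moves the shares of the complexes by several percent or more.

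The relaxed lists hold 30000 peaks each and include background by design. In the list made from the pooled replicates, 48 of the 87 genes (55.2%) had a summit within 1 kb, against 50.9% of all protein-coding genes. These 48 were 46 of 63 standard subunit genes (73%) and 2 of 24 paralogues (8.33%), COX7AL2 and, at rank 29936 of 30000, ATPsynGL. In the lists of replicates 1, 2 and 3, a summit lay near 52, 57 and 53 of the 87 genes, a mean of 54 ± 2.65 (SD, n = 3). The same shares over all protein-coding genes were 54.1%, 54.0% and 55.2%, a mean of 54.4% ± 0.707 (SD, n = 3), and over the 87 genes 62.1% ± 3.04 (SD, n = 3).

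The standard subunit genes had 51, 52 and 48 members with a relaxed summit in replicates 1, 2 and 3 (81%, 82.5% and 76.2%), and the paralogues had 1, 5 and 5 (4.17%, 20.8% and 20.8%). The share was higher for the standard subunit genes in each of the 3 replicates. When each replicate was limited to its 9316 peaks of highest signal, the counts were 37, 31 and 34 of 63 standard subunit genes, 1, 1 and 1 of 24 paralogues, and 35.6%, 33.3% and 35.3% of all protein-coding genes. A summit in all 3 replicates was found for 45 genes (51.7%), 44 of them standard, against 44.5% of all protein-coding genes. No list had a summit near 21 genes (24.1%), against 34.9% of all. They were 16 paralogues and the complex I genes ND-13A, ND-18, ND-19, ND-30 and ND-B14.7.

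The order of the complexes was not the same in the 3 replicates. The median rank of the best summit over the standard subunit genes, with genes lacking one placed last, was 8212, 5898, 7164, 4947 and 9227 for complexes I to V in replicate 1. It was 11343, 6760, 14217, 8285 and 7572 in replicate 2 and 14572, 5728, 9417, 8090 and 7393 in replicate 3. Complex II was lowest, that is strongest, in replicates 2 and 3 and complex IV in replicate 1. Complex V was the weakest in replicate 1 and the second strongest in replicates 2 and 3.

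Complex I held the 3 strongest summits of the set. ND-15, an accessory subunit gene named NDUFS5 in mammals, lay near the 49th strongest peak of the optimal list (signal 1510, chr2L:155858-156376). This peak ranked 81st, 37th and 39th in replicates 1, 2 and 3. Its summit was 754 bp downstream of the nearest ND-15 TSS and 60 bp from the TSS of CG3436, in the 5′ UTR of that gene, so its place is nearer to the neighbour. ND-ASHI (NDUFB8, accessory) had rank 265 (signal 774, chrX:6679148-6679543) and ranks of 319, 212 and 313 in the replicates. That summit lay 248 bp upstream of ND-ASHI inside an intron of Fum1, the fumarase gene of the tricarboxylic acid cycle, and was also the strongest one within 1 kb of a Fum1 TSS. ND-MWFE (NDUFA1, accessory) had rank 495 (signal 596) and ranks of 625, 652 and 420, with the summit 201 bp upstream of its TSS and 20 bp from that of TppII. In all 3 replicates these 3 peaks were within the 652 strongest of 30000.

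The core genes of complex I in the nucleus encode the part that carries electrons to ubiquinone. ND-51 (NDUFV1), the flavoprotein subunit at which NADH is oxidised, had rank 1130 (signal 391), with ranks of 1070, 1256 and 1279 and its summit 85 bp upstream of its own TSS. ND-75 (NDUFS1), the largest iron-sulphur subunit, had rank 1296 (signal 365) and ranks of 1201, 1284 and 1596, with the summit 793 bp upstream and nearer to CG1632. ND-24 (NDUFV2), another iron-sulphur subunit of the same electron input arm, had rank 2688 (signal 235) and ranks of 2815, 2957 and 2891. Its summit lay 106 bp upstream of the nearest ND-24 TSS, in an intron of ND-24. These 3 of the 7 nuclear core genes (42.9%) had an optimal summit, against 33.5% of all protein-coding genes. That of ND-75 was lost in a window of 500 bp. The other core genes, ND-49, ND-30, ND-23 and ND-20, had none there or in the pooled list. ND-49 had a summit in replicate 1 only, at rank 4959, and ND-23 in replicate 1 only, at rank 6992. ND-20 had one in replicates 2 and 3, at ranks 10116 and 11288, and ND-30 had none in any list.

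The remaining complex I genes with an optimal summit were accessory subunits, with ranks from 1794 to 8866. ND-SGDH (NDUFB5) had rank 1794 with a summit nearest to RhoGAP68F, and a further summit of rank 1927 at 29 bp upstream of its own TSS. ND-42 (NDUFA10) had rank 2349 nearest to Cchl, and a further one of rank 3906 at 48 bp upstream. ND-MNLL (NDUFB1) had rank 3115 at 914 bp downstream of its TSS, and it is annotated over the same interval as CG45089. A further, weaker optimal summit lay within 250 bp of a TSS of ND-MNLL. ND-B17.2, ND-B22, ND-B18, ND-B8 and ND-39 had signals of 184, 165, 149, 119 and 94.4. Their summits lay between 102 bp upstream and 5 bp downstream of the nearest own TSS, that of ND-39 in an intron of ND-39. ND-B17.2 (NDUFA12) had ranks of 4914 and 2624 in replicates 2 and 3, and in replicate 1 no summit within 100 bp of the optimal one, while a summit of rank 6609 lay within 1 kb.

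Complex II is succinate dehydrogenase, which also acts in the tricarboxylic acid cycle. SdhA, the flavoprotein that oxidises succinate, had a peak of rank 571 (signal 560) that ranked 652nd, 489th and 560th in replicates 1, 2 and 3. Its summit was 832 bp upstream of the SdhA TSS and 31 bp from that of cer. The summit of SdhA nearest to its own TSS, 79 bp upstream, had rank 8047 in the optimal list. SdhB, the iron-sulphur subunit, had rank 7013 (signal 117) and ranks of 6697, 8096 and 7242, with the summit 2 bp upstream of its TSS. SdhC, a membrane anchor, had rank 4530 (signal 165) and ranks of 5100, 5424 and 4214, with the summit 320 bp upstream and nearer to Tctp. SdhD, the other anchor, had rank 8414 (signal 99.5) and ranks of 7653 and 7348 in replicates 1 and 3, with the summit 48 bp upstream. In replicate 2 SdhD had no summit within 100 bp of that position, and its best within 1 kb ranked 22224th. Thus all 4 had an optimal summit, and the strong one was nearest to another gene. The copies SdhAL and SdhCL had no summit in any list, and SdhBL had one at ranks 12702 and 12202 in replicates 2 and 3 only.

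In complex III, the 3 genes with an optimal summit all had weak ones, outside the 4658 strongest optimal peaks. UQCR-6.4, a small accessory subunit gene, had rank 5833 (signal 136) and ranks of 5119, 4729 and 5188. That summit lay 775 bp upstream of the UQCR-6.4 TSS and 97 bp from that of Rab4. A further, weaker optimal summit lay within 250 bp of the UQCR-6.4 TSS and was also nearer to another gene. UQCR-C2, a core protein gene, had rank 6202 (signal 130) and ranks of 6291, 7337 and 7035, at 4 bp upstream of its own TSS. UQCR-14 had rank 8219 (signal 102) and ranks of 6460, 12805 and 7722, at 25 bp upstream. UQCR-C1, the other core protein gene, had no optimal summit, and a pooled summit 1 bp from its TSS at rank 12376, with its best ranks at 13271, 18311 and 11112. UQCR-Q and UQCR-11 likewise had pooled summits only, at ranks 13826 and 14213, and none in replicate 2.

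In complex IV, cytochrome c oxidase, COX5A had rank 1985 (signal 284, chr3R:11819407-11819546) and ranks of 2188, 1903 and 2769. Its summit lay in an intron of COX5A, 111 bp upstream of the nearest COX5A TSS and 68 bp from that of glo. COX6B had rank 3326 (signal 206) and ranks of 2869, 4826 and 3710, with the summit 50 bp upstream of its TSS and 46 bp from that of CG33932, a near tie. COX7B had rank 3578 (signal 197) and ranks of 2453, 5400 and 4046, at 129 bp upstream of its own TSS. COX7C, COX8 and COX5B had signals of 118, 117 and 92.8, and wider spreads between replicates. COX8 had ranks of 3573, 10385 and 14098, and COX5B of 6322, 16408 and 9714. COX4 had no optimal summit but a pooled one at rank 14294, 58 bp from its TSS, and COX7A had a summit in replicate 2 only, at rank 23901.

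In complex V, ATP synthase, summits were found at genes of the rotor, the catalytic head and the stalk. ATPsynE, which encodes subunit e of the membrane part, had rank 2001 (signal 283) and ranks of 2010, 1954 and 2680, with a summit 798 bp downstream of its TSS and nearer to spn-B, and a further one of rank 3126 at 27 bp downstream. ATPsynbeta, the catalytic subunit gene, had rank 3429 (signal 202) and ranks of 2826, 4760 and 3729. Its summit lay in an intron of ATPsynbeta, 64 bp upstream of the nearest ATPsynbeta TSS and 43 bp from that of CG11076. ATPsynD, a peripheral stalk gene, had rank 6289 (signal 128) and ranks of 9672, 18879 and 4561. That summit lay 733 bp upstream of the ATPsynD TSS and 3 bp from that of cdi. A further one of rank 8030 (signal 104) lay 47 bp upstream of the ATPsynD TSS. ATPsynCF6 (coupling factor 6, peripheral stalk) had rank 6309 (signal 128) and ranks of 4436, 9827 and 8732. The summit was 137 bp upstream of the ATPsynCF6 TSS and 77 bp from that of Sec13. ATPsynC (the proton-carrying ring) had rank 6808 and ATPsyngamma (the central shaft) rank 8151. ATPsyngamma had ranks of 28437, 4793 and 7691 in replicates 1, 2 and 3, the widest spread between replicates of the 34 strongest summits. ATPsynO, ATPsynB, ATPsynF and ATPsynG, of the stalk and membrane part, had a summit in at least 1 replicate and none in the pooled list. ATPsyndelta had a pooled one at rank 27398 and one in replicate 1 only, at rank 12094.

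**Figure D2:**
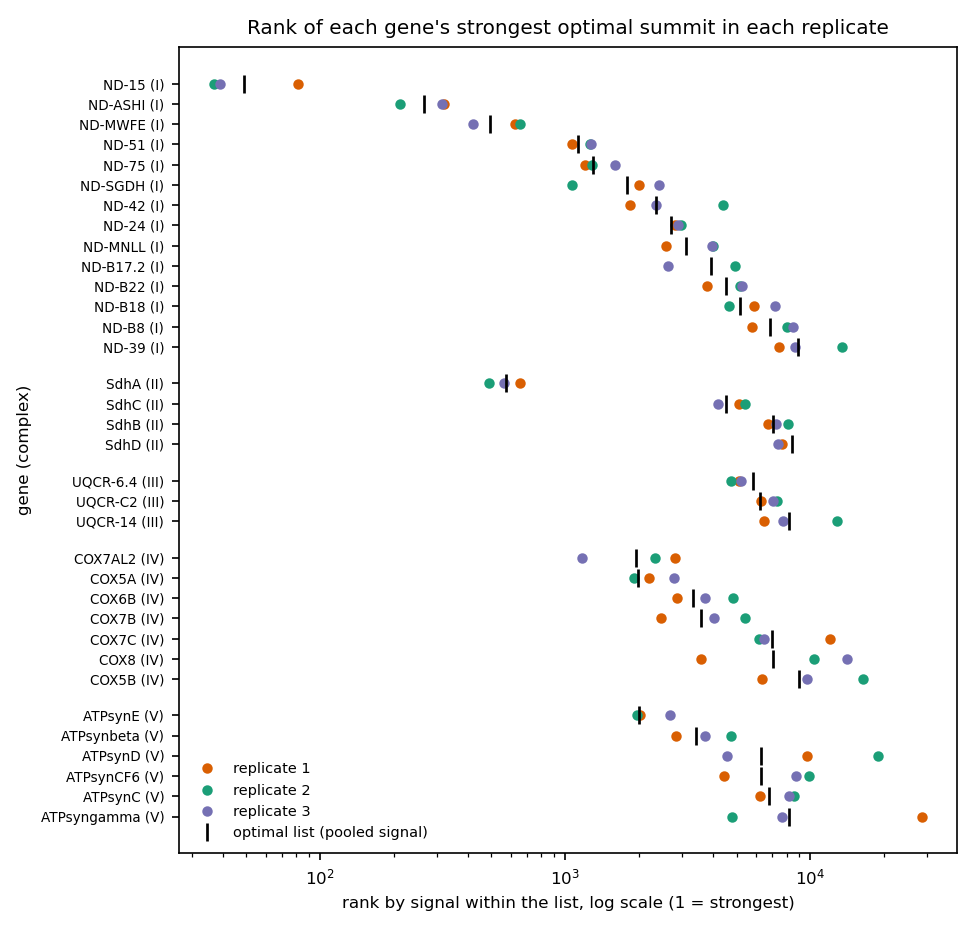
Rank by signal (horizontal axis, log scale, 1 is the strongest) of the strongest optimal summit of each of the 34 genes (vertical axis, with the complex in parentheses) in the optimal list (bars) and of the summit within 100 bp in each replicate (points). ND-15, ND-ASHI, ND-MWFE and SdhA stand at the strong end in every replicate, and the spread between replicates is wide at ATPsynD, ATPsyngamma and COX8.

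Most of these summits recurred between replicates, which the reproducibility threshold of the optimal list favours by design. Of the 34 strongest summits, 32 (94.1%) lay within 100 bp of a relaxed summit in all 3 replicates, against 86.6% of the strongest summits of the 4677 protein-coding genes. The remaining ones, those of ND-B17.2 and SdhD, lacked a match in a single replicate. In the 9316 peaks of highest signal of every replicate, 24 of 34 (70.6%) were found, against 66.8% of the strongest summits of those genes. The median rank of the 34 in the optimal list was 4237, and that of the 4677 protein-coding genes with a summit was 3595.

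The second comparison concerned the place of the summits. The median distance from the strongest optimal summit to the gene's own TSS was 133 bp over the 34 genes and 160 bp over the 4677 genes, and 64.7% against 64.5% lay within 250 bp. The summit was upstream of the nearest own TSS at 29 of 34 genes (85.3%), against 76.9% of all. That TSS can lie inside the gene. At ND-24, ND-39, COX5A, ATPsynbeta and COX7AL2 the summit counted as upstream lay in an intron of the gene itself. At ND-B18 and UQCR-C2 it lay in the gene's own 5′ UTR. The strongest summit lay in intergenic sequence at 14, in an intron at 9 and in a 5′ UTR at 8 of the 34. A coding exon, a 3′ UTR and another exon held 1 each. The nearest protein-coding TSS to the strongest summit was the gene's own at 17 of 34 (50%), ties included, against 71.8% of all. With any optimal summit within 1 kb counted, 22 of the 87 genes (25.3%) had one nearest to their own TSS, against 25.7% of all protein-coding genes. A summit within 1 kb of a gene does not show which gene it acts on.

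**Figure D3:**
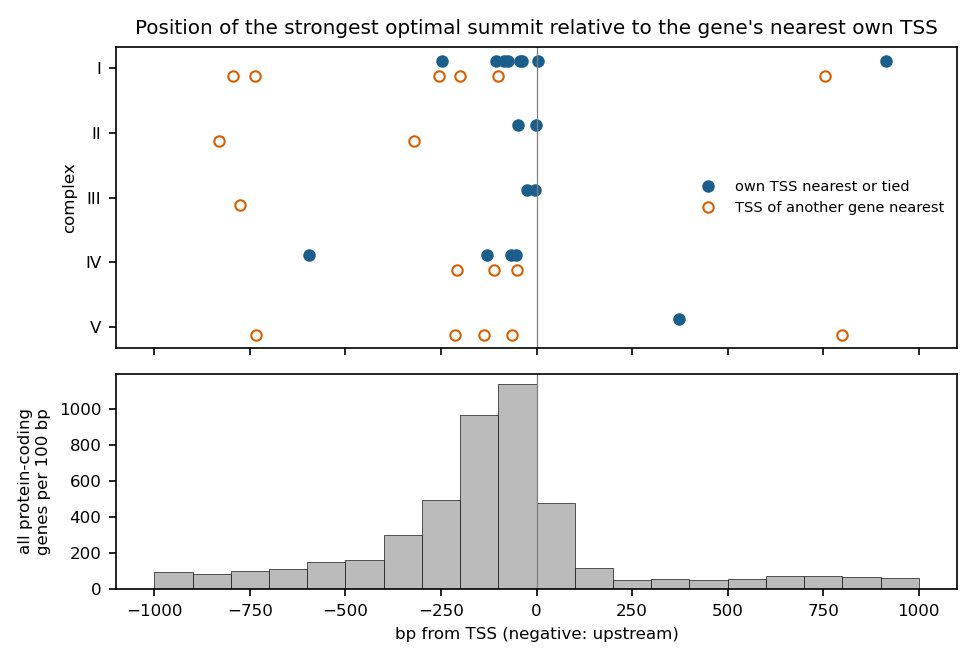
Distance in bp (horizontal axis, negative values upstream) from a gene's nearest own TSS to its strongest optimal summit, for the 34 oxidative phosphorylation genes by complex (upper panel, 1 point a gene) and for all 4677 protein-coding genes with an optimal summit (lower panel, number of genes per 100 bp). Open points, at 17 of the 34 genes, mark summits nearer to a TSS of another gene.

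The standard subunit genes and the paralogues also differed in their surroundings. A TSS of another protein-coding gene lay within 1 kb of a TSS of 44 of 63 standard subunit genes (69.8%) and 7 of 24 paralogues (29.2%), against 42.9% of all protein-coding genes. With such a neighbour, 27 of 44 standard subunit genes (61.4%) and 1 of 7 paralogues had an optimal summit, against 48.4% of all. Without one, 6 of 19 (31.6%) and 0 of 17 did, against 22.4% of all. The number of annotated TSS moved in the same direction. Of the standard subunit genes 32 of 63, and of the paralogues 3 of 24, had 2 or more, against 26.5% of all. Among genes with 1 TSS, 13 of 31 standard subunit genes (41.9%), 0 of 21 paralogues and 26.3% of all genes had an optimal summit. With 2 or more TSS, 20 of 32 standard subunit genes (62.5%), 1 of 3 paralogues and 53.7% of all genes had one. In both classes of neighbour the standard subunit genes were above all protein-coding genes, and the paralogues, only 7 and 17 genes, were below. Neighbour and number of TSS were not held fixed together. The part of gene density or TSS number in the difference between the 2 kinds of gene was not tested.

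**Figure D4:**
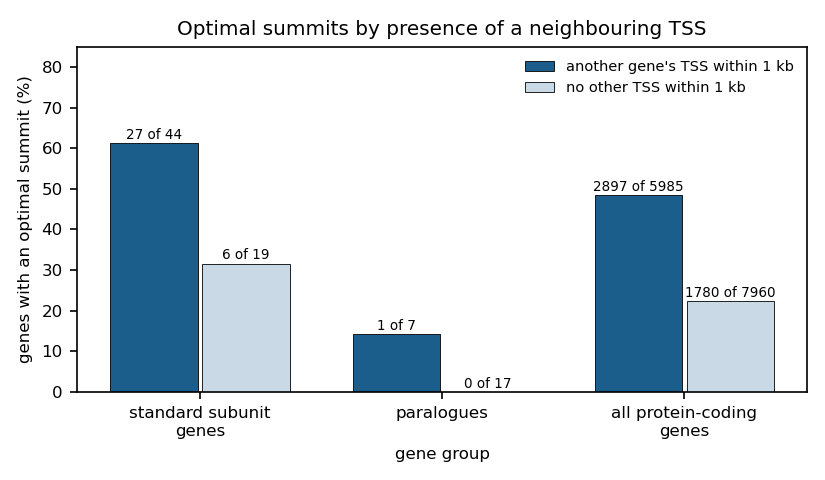
Share of genes with an optimal summit within 1 kb (vertical axis, %) for standard subunit genes, paralogues and all protein-coding genes (horizontal axis), with and without a TSS of another protein-coding gene within 1 kb. Counts stand above the bars. In each of the 3 groups the bar with a neighbour is the higher one.

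Each paralogue was set beside the gene it is named for, which gave 24 pairs with 21 parent genes, including levy (COX6A), cype (COX6C) and sun (ATP synthase epsilon). In the optimal list the parent alone had a summit in 15 pairs, the paralogue alone in 1 (COX7AL2) and neither in 8, and no pair had both. In replicates 1, 2 and 3 the parent alone had a relaxed summit in 20, 18 and 15 pairs, the paralogue alone in 1, 1 and 1, and both in 0, 4 and 4. The direction was the same in the 3 replicates. Pairs that share a parent are not independent. In the optimal list 13 of the 21 parents had a summit, against 33.5% of all protein-coding genes. Since 1 of the 24 paralogues had one, at most 1 pair could have both. The pairs thus largely restate the difference between the 2 kinds of gene and are not a separate result. The pair of Cyt-c1 and Cyt-c1L, outside the symbol rule, was not counted here and is described below.

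By chromosome arm, 7 of 16 genes on 2L, 5 of 17 on 2R, 5 of 20 on 3L, 9 of 19 on 3R, 1 of 2 on chromosome 4 and 7 of 13 on X had an optimal summit, against 29.7%, 32.9%, 35%, 35.1%, 26.2% and 35.1% of all protein-coding genes of those arms. No arm held more than 9 of the 34.

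Sequence at the summits was read from the RefSeq Release 6 genome. The letters searched, on both strands, were the Sox core AACAAT and the Sox heptamer AACAAAG, which HMG-box proteins of this family are known to recognise, and 6 words of other factors. In windows of 101 bp centred on the strongest summit, AACAAT was found at 9 of 34 genes (26.5%), against 12.6% of the 4677 genes with an optimal summit. These were ATPsynCF6, COX5B, COX7B, COX8, ND-42, ND-51, ND-75, SdhC and UQCR-6.4. Among them, only COX7B, COX8 and ND-51 had their own TSS nearest to that summit. AACAAAG was found at ATPsynD, ND-15, ND-39 and SdhA (11.8%), against 5.92% of all, and only ND-39 had its own TSS nearest. Median GC content of the windows was 37.1% against 36.6%. The DRE TATCGATA, bound by the promoter factor DREF, was in 2 of the 34 windows (5.88%, SdhC and UQCR-14), against 4.25% of all. The remaining words were in none of the 34.

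The stretches below show where the words stand in relation to the summit. Stretches were printed only from genes of all arms but 1, so SdhD and not the higher-ranked SdhB is shown. Within that limit, those of complexes I, II, IV and V are from the highest-ranked gene whose strongest summit lay in the exon-free sequence directly upstream of its own TSS, 60 to 200 bases long, and no gene of complex III met this. The paralogue ATPsynCF6L, which had no summit in any list, stands below its parent. Each is written 5′ to 3′ in the direction of the gene, up to the base before the TSS, with capitals at any match to AACAAT or its reverse complement.
ND-51 (chr2L:6062758-6062957, minus strand): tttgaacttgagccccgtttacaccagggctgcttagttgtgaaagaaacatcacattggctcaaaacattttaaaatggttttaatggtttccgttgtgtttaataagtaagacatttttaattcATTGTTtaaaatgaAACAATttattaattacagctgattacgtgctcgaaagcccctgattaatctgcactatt
SdhD (chr3R:23760601-23760736, minus strand): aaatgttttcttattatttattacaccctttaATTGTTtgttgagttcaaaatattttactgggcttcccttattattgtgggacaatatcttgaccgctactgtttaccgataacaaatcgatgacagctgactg
COX6B (chrX:19744336-19744430, minus strand): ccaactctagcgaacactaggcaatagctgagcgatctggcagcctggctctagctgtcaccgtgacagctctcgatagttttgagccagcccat
ATPsynCF6 (chr3R:23356065-23356264, minus strand): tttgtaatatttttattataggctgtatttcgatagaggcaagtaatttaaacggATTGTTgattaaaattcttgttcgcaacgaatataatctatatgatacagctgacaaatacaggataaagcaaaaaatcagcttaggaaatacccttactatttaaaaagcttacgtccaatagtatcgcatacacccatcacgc
ATPsynCF6L (chr3L:5012134-5012333, minus strand): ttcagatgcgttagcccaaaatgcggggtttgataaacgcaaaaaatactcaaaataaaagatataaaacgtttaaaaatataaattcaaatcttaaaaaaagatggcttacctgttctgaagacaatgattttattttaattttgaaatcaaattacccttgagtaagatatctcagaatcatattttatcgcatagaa

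In ND-51 the summit lay at 85 bases upstream of the TSS, and the matches began at 74 and 60 bases upstream, in opposite orientations. In ATPsynCF6 the summit was at 137 and the match at 145 bases upstream. That summit was nearer to the TSS of Sec13, 77 bp away. In SdhD the summit was at 48 and the match at 104 bases upstream, outside the 101 bp window. The stretches of COX6B, with its summit at 50 bases upstream, and of ATPsynCF6L held none of the words. A match is a description and not a measured site, and its absence says only that these letters are not in the stretch.

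Over promoters of 300 bp, 250 before to 50 after the most upstream TSS, AACAAT was present at 28 of 63 standard subunit genes (44.4%) and 4 of 24 paralogues (16.7%), against 32.1% of all protein-coding genes. The heptamer AACAAAG had the other order, at 3 of 63 (4.76%) and 3 of 24 (12.5%), against 8.15% of all. Standard subunit genes with an optimal summit had AACAAT in 17 of 33 promoters (51.5%), and those without one in 11 of 30 (36.7%). For AACAAAG these were 1 of 33 (3.03%) and 2 of 30 (6.67%). The promoter word Motif 1, GGTCACACT, bound by the factor M1BP, was present at 14 of 63 standard subunit genes (22.2%) and 1 of 24 paralogues (4.17%), against 6.05% of all. It was present at 7 of 33 standard subunit genes with an optimal summit (21.2%) and 7 of 30 without one (23.3%). The DRE was present at 9 of 63 (14.3%) and 0 of 24, against 9.36%. The NRG element (TTACATAA, TTACGTAA or TTATATAA), known from D. melanogaster oxidative phosphorylation genes, was present at 5 of 63 (7.94%) and 0 of 24, against 5.18% of all. Median GC content was 34.3% and 33.7%, against 38% over all promoters.

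Genes of the pathway that the symbol rule does not reach were described in the same way. For them it was not examined whether a TSS of another gene was nearer to the summit. Of 12 further subunit and electron carrier genes, 9 (75%) had an optimal summit and all 12 a pooled one, against 33.5% and 50.9% of all protein-coding genes. Both cytochrome c genes stood high. Cyt-c-d had rank 233 (signal 822), with ranks of 190, 225 and 342 and the summit 388 bp from its TSS. Cyt-c-p had rank 618 (signal 543), with ranks of 584, 640 and 747 and the summit 974 bp from its TSS. The gene blw, which encodes subunit alpha, the partner of ATPsynbeta in the head of ATP synthase, had rank 1639 (signal 318), with ranks of 1137, 2062 and 1975. The gene levy had rank 2421 and RFeSP, the Rieske protein of complex III, rank 9156. Cyt-c1, the electron acceptor of RFeSP, had no optimal summit, and a pooled one at rank 13481. Cyt-c1L, whose symbol adds a final L to that of Cyt-c1, had an optimal summit at rank 6830 (signal 120), 718 bp from its TSS. Its ranks in the replicates were 7558, 8346 and 6734. Here the copy and not the parent had an optimal summit, the opposite of most pairs described above. Of 12 assembly factor genes, 2 (16.7%) had one, against the same 33.5%. They were Cox17, a copper chaperone of complex IV, at rank 1873, and Coa8 at rank 4184.

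Upstream and around the pathway, 10 of 17 tricarboxylic acid cycle genes (58.8%) had an optimal summit, against 33.5% of all protein-coding genes, with Fum1 at rank 265 and Idh3g, a subunit of isocitrate dehydrogenase, at rank 591. Of 11 carriers of the inner and outer membrane, 4 (36.4%) had one, a share near that of all genes, while sesB, the main ADP/ATP carrier, had a pooled summit only, at rank 12211. Of 18 regulators of mitochondrial gene expression, 8 (44.4%) had one, against 33.5% of all. SLIRP2, an RNA-binding protein gene, had rank 60 (signal 1400), and ranks of 59, 90 and 52 in the replicates. ERR, the nuclear receptor that activates genes of carbohydrate metabolism, had rank 655 (signal 528), and ranks of 431, 1088 and 610. TFAM, which packages mitochondrial DNA, had rank 8990, and srl, the coactivator of the PGC-1 family, had no summit in any list.

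The most similar gene sets gave a scale for these shares. Mitochondrial ribosomal protein genes had an optimal summit at 38 of 73 (52.1%), close to the standard subunit genes, and 60 of the 73 had a neighbouring TSS within 1 kb. Vacuolar ATPase genes, which encode a proton pump with a related rotor, had one at 12 of 33 (36.4%), and 15 of the 33 had a neighbour. Neither set was split into standard genes and paralogues, and the 87 oxidative phosphorylation genes taken whole had 39.1%. Over all protein-coding genes, 33.5% had an optimal summit and 42.9% had a neighbour. None of these differences was tested.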

How the data were processed

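Peak lists for build dm6 were used: a relaxed list of 30000 peaks for each of 3 biological replicates, one for the pooled replicates, and the optimal list of 9316 peaks, made by the authors with a control file, per the deposited text descriptions. The control was not analysed here, nor were the dm3 lists. No source used here gives the aligner, peak caller, threshold on the irreproducible discovery rate or read depth. Each peak has the authors' signal, whose scale is particular to its list, and the authors' −log10 q value, both as deposited. Of the pooled peaks, 45.6% had q under 0.01. Peaks were ranked by signal within a list, and summits at most 100 bp apart counted as shared.

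Genes and TSS were from Ensembl release 115 (BDGP6.54), and sequences were read from the RefSeq Release 6 genome, whose arm lengths hold every peak. A gene had a summit where one lay within 1000 bp of any of its TSS. Distances and sides are given from the nearest own TSS, which may lie inside the gene. Shares of genes were counted in Python 3.11.15 with pandas 2.3.3 and numpy 2.4.6, and the counting was tested on simulated data. With 1 group there was no contrast between conditions, and gene shares are given as counts with no test. The gene rule and all lists were chosen with earlier results of these data known. Named with values in every replicate were all genes of complex II, the 3 of highest signal in each other complex, those lacking a replicate and the core genes lacking an optimal summit. ND-51, ND-75, ND-24, COX7B, COX8, COX5B, ATPsynCF6, ATPsyngamma and genes outside the symbol rule were added after their values were seen, and so were the printed stretches and the splits by neighbouring TSS and by number of TSS. In the gene lists, blw, Cyt-c1L, NdufA3 and NdufV3 were added by symbol after the annotation was read. The alternatives covered the window, the TSS used, the peak set, the match between replicates and each replicate left out.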

Additional observations from a re-analysis of the deposited data

How the results depend on the processing

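The count of 34 genes with an optimal summit stayed between 30 and 38 with windows of 250 bp, 500 bp and 2 kb. It also did with the most upstream TSS only, pooled peaks with q under 0.01, or summits matched in all replicates. The 3 windows gave 34.5%, 35.6% and 42.5% of the 87 genes, against 24.6%, 29.6% and 39.5% of all protein-coding genes. The most upstream TSS gave 36.8% against 31.7%, and q under 0.01 gave 43.7% against 40.3%. Summits matched within 100 bp gave 36.8% against 30.1%, and within 250 bp 39.1% against 32.4%. The count fell to 22 (25.3%, against 25.7% of all protein-coding genes) when only the nearest TSS counted. Among the 4658 strongest optimal peaks it fell to 19 (21.8%, against 20.6%). Standard subunit genes then had 21 (33.3%) and 18 (28.6%). Nearest TSS gave 10 in complex I, 3 in II, 2 in III, 4 in IV and 3 in V. The 4658 strongest peaks gave 11 in complex I, 2 in II, 0 in III, 4 in IV and 2 in V. Paralogues had 0 within 500 bp and 250 bp, 2 within 2 kb and 2 in the pooled list. The mean per replicate was 35 with the 9316 strongest peaks of each. A replicate was left out by using the strongest peaks shared by the other pair, sets of 6655, 6771 and 6045 peaks. This gave 24 to 30 genes in all, 13 in complex I, 3 to 4 in II, 1 to 3 in III, 3 to 5 in IV, 4 to 6 in V, 23 to 29 standard subunit genes and 1 paralogue. Without replicates 1, 2 and 3 the shares were 33.3%, 34.5% and 27.6% of the 87 genes, against 26.8%, 28.3% and 24.4% of all. The causes were not tested. No paired analysis was possible because there was 1 group of samples.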

Other observations

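ATPsynF, a gene of the membrane part of ATP synthase, was the single oxidative phosphorylation gene of 27 with a summit among the 9316 strongest peaks of every replicate that had no pooled summit within 1 kb. Its summits in replicates 1, 2 and 3 had ranks of 4087, 6003 and 7393, signals of 61.5, 47.7 and 40.4, and −log10 q values of 4.2, 4.23 and 4.25. The nearest pooled summit was 4641 bp from its TSS. Over all protein-coding genes, 41 of 3694 (1.11%) had this pattern. A count from the pooled or optimal list alone leaves ATPsynF out, and the cause was not tested.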
